A study of Homo sapiens with 38 samples.

Results

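The genes described are 10 well known targets of the hypoxia-inducible factors, VEGFA, BNIP3, EGLN3, ANKRD37, CA9, ADM, NDRG1, KDM3A, P4HA1 and BNIP3L, taken by symbol as 10 of the 57133 genes of the count table. The libraries came from Shef6, a human embryonic stem cell line whose naive cells had all been adapted to growth on serum-coated plates without feeders, kept naive in PXGL (LIF plus blockers of MEK, PKC and tankyrase) or moved out of it on Geltrex into N2B27, E8 or mTeSR, or into N2B27 with the tankyrase inhibitor XAV939 alone (XAV) or together with FGF2 and Activin A (FAX). The first experiment, Ex1 (30 libraries), sampled N2B27 and E8 on days 2, 3, 4, 6 and 8 and mTeSR on days 4, 6 and 8, beside naive cells grown on serum coating and on Geltrex. Ex2 (8 libraries) sampled day 4 of N2B27, of XAV and of FAX, beside naive cells grown on Geltrex. Each of the 19 groups had 2 libraries of 3′ RNA sequencing. All libraries come from 1 line, so the values describe Shef6. The study calls the replicates technical in places and biological in another, so p-values measure the spread between these libraries, which may be technical. Its methods give reduced oxygen for the naive cultures; the oxygen level during differentiation is not given in the sources used here. The library names of naive Ex2 carry a day 4 tag while their time label is day 0, and the label was followed.

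Cells sense oxygen through prolyl hydroxylases (EGLN1 and EGLN3 among them), which mark the HIF1A and EPAS1 proteins for destruction through VHL when oxygen is present. When oxygen is scarce, or when the hydroxylases are inhibited, the HIF proteins pair with ARNT and raise transcription of genes for vessel growth, glycolysis, mitochondrial removal and collagen modification. HIF control acts mainly on the protein, so the mRNA of HIF1A need not move with its targets. Many of these targets also respond to other inputs, such as nutrient stress or growth signals.

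HIF with ARNT binds a short DNA word, and stretches upstream of the RefSeq start of transcription are shown for 4 members to let it be seen: BNIP3 and P4HA1, which differed between media, ADM, which was called most often, and ANKRD37, which was called lower. RefSeq promoter entries (GRCh38.p14) were found for 7 of the 10 members, all but VEGFA, NDRG1 and BNIP3L. The 250 bases before each start were searched for ACGTG and GCGTG on both strands, where CACGT and CACGC are the same words read from the other strand. A match stood in 6 of the 7 (BNIP3 6 matches, ANKRD37 3, and 1 each in CA9, ADM, KDM3A and P4HA1), while EGLN3 had none. In BNIP3 and in ANKRD37 a CACGTG was counted on both strands, as CACGT and as ACGTG, though it is a single site. Of all 35116 promoter entries, 43.2% held a match, so a match alone sets no gene apart. BNIP3, ANKRD37 and ADM are printed as the stretch of the window outside annotated exons and P4HA1 as the 30 bases around its match, 5′ to 3′ on the strand of the gene, with matches in capitals (overlapping matches run together). The P4HA1 match lies in an annotated exon. The annotation that gave the exons starts ANKRD37 and P4HA1 farther upstream than RefSeq, so by it both printed stretches lie inside their genes.
BNIP3, chr10:131981968-131982173, minus strand: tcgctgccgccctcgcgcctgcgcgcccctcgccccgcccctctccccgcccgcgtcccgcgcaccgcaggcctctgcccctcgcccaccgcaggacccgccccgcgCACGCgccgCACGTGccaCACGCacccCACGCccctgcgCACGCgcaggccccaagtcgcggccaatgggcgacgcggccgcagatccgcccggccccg
ANKRD37, chr4:185396591-185396810, plus strand: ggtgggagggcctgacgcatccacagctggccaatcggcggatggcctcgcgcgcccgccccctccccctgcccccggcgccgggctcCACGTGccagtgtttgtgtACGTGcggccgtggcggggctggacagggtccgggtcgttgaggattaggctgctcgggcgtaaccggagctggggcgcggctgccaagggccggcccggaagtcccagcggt
ADM, chr11:10304878-10305072, plus strand: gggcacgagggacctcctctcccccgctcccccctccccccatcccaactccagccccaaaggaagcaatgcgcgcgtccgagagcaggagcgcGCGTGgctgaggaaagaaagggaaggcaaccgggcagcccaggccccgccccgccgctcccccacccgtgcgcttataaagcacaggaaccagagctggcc
P4HA1, chr10:73096936-73096965, minus strand: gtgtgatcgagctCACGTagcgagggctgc

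The libraries held 3038046 to 5612354 counts (median 4427277). Levels are given as CPM after TMM scaling (counts scaled to a common library total), and 1 count was worth little: 3 counts, the smallest amount taken as detected, came to 0.518 to 1.06 CPM. A gene was called in a comparison at an adjusted p under 0.05 with a change of more than 1 on the log2 scale (edgeR's quasi-likelihood test, Benjamini-Hochberg over the 16674 genes tested). Of the 10 members, 9 were tested. CA9, the carbonic anhydrase that is among the most oxygen-dependent of these genes, was not: its 25 reads lay in 17 of the 38 libraries with at most 2 in any library, and no library reached 3 counts. The naive markers KLF17 and DPPA5 fell from 77.2 and 449 CPM in the 6 naive libraries to 24.4 and 187 CPM in N2B27 at day 8, while the primed markers ZIC2 (0.823 to 146 CPM) and SALL2 (20.4 to 115 CPM) rose. The naive mean of ZIC2 lay within the range of that smallest detected amount. POU5F1 stood at 403 CPM in naive and at 316, 414 and 410 CPM at day 8 in N2B27, E8 and mTeSR, with no call, and NANOG at 997 CPM and at 758, 869 and 1042 CPM. In bulk libraries, fewer cells of a type and less RNA per cell cannot be told apart.

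Over the 15 comparisons of a medium and day with the 6 naive libraries, members were called in 40 of 135 tests (29.6%), 39 higher and 1 lower; over all genes the share was 20.8%. ADM was called in 10 of the 15, NDRG1 in 9, VEGFA and BNIP3L in 6 each, BNIP3 in 5 and P4HA1 in 3. ANKRD37 was called once, lower, and EGLN3 and KDM3A never. These counts rest on naive libraries pooled over 2 experiments. Against the naive Geltrex cells of the same experiment, an alternative reference with 16 comparisons, members were called in 50 of 144 tests (34.7%, against 21% over all genes), 45 higher and 5 lower. The 5 falls were EGLN3 in N2B27 at day 2, ANKRD37 in E8 at day 2 and P4HA1 in the 3 day 4 groups of Ex2. At day 8 the members called were 6 in N2B27 (23.9% of all genes called), 5 in E8 (27.5%) and 6 in mTeSR (25.1%), all higher. The median log2 change over the 9 tested members was 1.10, 1.03 and 1.59 while the median over all genes was −0.03, 0.00 and −0.02.

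**Figure D1:**
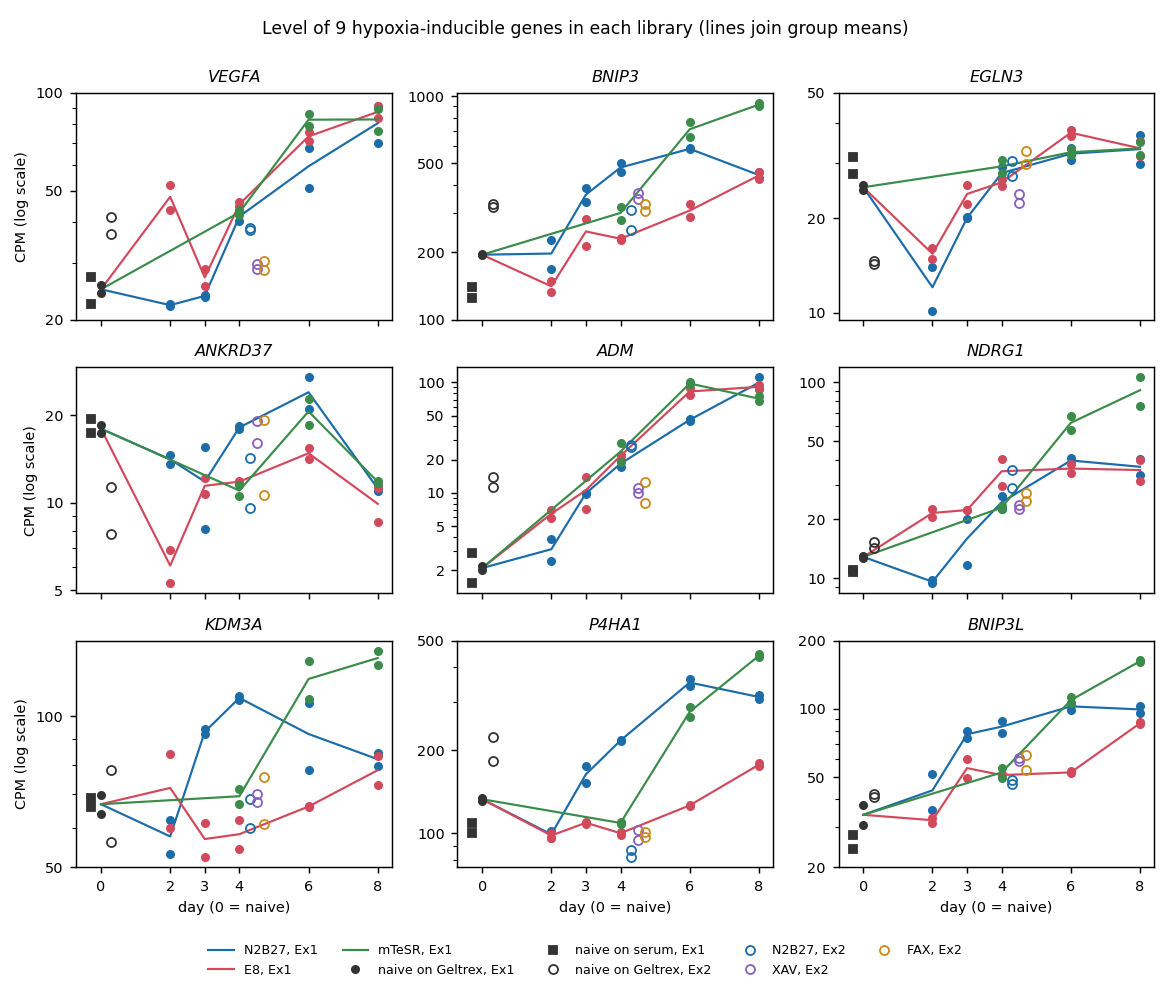
CPM (log axis) of the 9 tested members against day in each library, with filled points for Ex1, open points for Ex2 (shifted right), squares for naive cells on serum, and lines joining Ex1 group means. VEGFA, ADM, NDRG1 and BNIP3L end at day 8 above the naive libraries in the 3 media, and the P4HA1 lines part by medium between days 3 and 6.

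The secreted factors come first. ADM encodes adrenomedullin, a peptide that widens vessels. It stood at 1.52, 2.01, 2.16 and 2.87 CPM in the 4 naive Ex1 libraries, at 11.3 and 14.0 CPM in the 2 naive Ex2 libraries, and at 67.9 to 112 CPM in the 6 libraries of day 8. No library of day 8 came near any naive library. Against all 6 naive libraries ADM rose by 4.31 ± 0.32 (SE) in N2B27, 4.19 ± 0.32 in E8 and 3.83 ± 0.34 in mTeSR on the log2 scale, with adjusted p of 2.78e-13, 5.85e-13 and 1.46e-11 (edgeR). Set against the naive cells on Geltrex of Ex1 alone, the same changes were 5.55, 5.43 and 5.07, so the reference moved the ADM values by more than 1.5 times in fold.

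VEGFA, the growth factor for vessel cells, stood at 22.4 to 27.1 CPM in the 4 naive Ex1 libraries, at 36.8 and 41.4 CPM in naive Ex2, and at 70.0 to 91.4 CPM in the 6 libraries of day 8. All day 8 libraries lay above all naive ones. The rise was 1.47 ± 0.15 in N2B27, 1.58 ± 0.15 in E8 and 1.51 ± 0.15 in mTeSR (adjusted p 3.76e-10, 5.38e-11 and 3.34e-10, edgeR). Its course differed between the media: at day 2 E8 held 43.7 and 52.0 CPM and N2B27 held 22.3 and 22.0 CPM, with no overlap, while at day 3 the groups held 28.6 and 25.3 against 23.8 and 23.6 CPM. VEGFA thus fell in E8 from day 2 to day 3 (by 0.83 on the log2 scale, adjusted p = 0.000317) and rose from day 3 to day 4 (0.75, adjusted p = 0.00331, edgeR), in neither step by enough to be called. The second step did not pass in a fit of those 2 groups only (adjusted p = 0.315, edgeR).

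BNIP3 and BNIP3L are paired receptors on the outer mitochondrial membrane that direct mitochondria to autophagy. BNIP3 held 125 to 196 CPM in naive Ex1, 317 and 330 CPM in naive Ex2, and 427 to 933 CPM at day 8, where the 2 mTeSR libraries (933 and 898 CPM) stood apart from N2B27 (458 and 428 CPM) and E8 (456 and 427 CPM). The change from naive was 1.04 ± 0.22 in N2B27, 1.03 ± 0.23 in E8 and 2.08 ± 0.22 in mTeSR (adjusted p 0.00027, 0.000256 and 8.03e-10, edgeR). The calls in N2B27 and E8 stood just over the threshold and were lost without either naive serum library (0.92 to 0.94) or without replicate 1 of the day 8 group (0.99 and 0.98). The call in E8 was also lost with the library score, the largest axis of spread within groups, as a covariate (0.89). BNIP3L held 24.0 to 37.6 CPM in naive Ex1, 40.8 and 41.9 CPM in naive Ex2 and 85.4 to 164 CPM at day 8. It was the earliest called of the pair, in N2B27 at day 3 (1.21 ± 0.18, adjusted p = 1.84e-06, edgeR), and its changes at day 8 were 1.57 ± 0.17, 1.37 ± 0.18 and 2.28 ± 0.17 in N2B27, E8 and mTeSR. Over the 19 group means BNIP3 was most like BNIP3L of the 9033 genes compared (Pearson's r 0.95 of log2 CPM), a description over groups that share experiment and day. BNIP3 has 39 pseudogene rows in the table, whose counts came to 11.6% of its own, so its reads may be split; BNIP3L's 3′ end lies inside PNMA2 on the other strand.

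NDRG1, a cytoplasmic protein of differentiating and stressed cells, held 10.8 to 15.3 CPM in the 6 naive libraries. At day 8 it held 33.8 and 40.5 CPM in N2B27, 31.3 and 40.1 CPM in E8 and 76.3 and 106 CPM in mTeSR, all above naive. The changes were 1.54 ± 0.17, 1.48 ± 0.17 and 2.84 ± 0.16 (adjusted p 3.68e-09, 9.87e-09 and 2.1e-16, edgeR). NDRG1's 3′ end overlaps an unnamed gene on its own strand, and whether the counting used strand is not given in the sources used here, so neither NDRG1, BNIP3L nor ANKRD37 (inside UFSP2 on the other strand) can be separated from its neighbour in full.

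P4HA1, the catalytic subunit of the enzyme that hydroxylates prolines of collagen, rose in all 3 media at day 8 against the naive Geltrex cells of Ex1 and in N2B27 and mTeSR against the pooled naive libraries. It held 101 to 135 CPM in the 4 naive Ex1 libraries and 223 and 184 CPM in naive Ex2. At day 8 N2B27 held 318 and 306 CPM, mTeSR 437 and 445 CPM, and E8 176 and 179 CPM, so E8 lay above the naive libraries of its own experiment and below those of Ex2, and the others lay above both. The changes were 1.10 ± 0.23 in N2B27 (adjusted p = 0.000198), 1.59 ± 0.23 in mTeSR (5.21e-07) and 0.28 ± 0.24 in E8 (0.354, edgeR), the last not passing. Against naive Geltrex of Ex1 the P4HA1 change in E8 was 0.42 ± 0.09 (adjusted p = 0.000439, edgeR), which passed without a call.

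KDM3A, a demethylase of histone H3, EGLN3, the hydroxylase that is itself a HIF target, and ANKRD37, a small ankyrin repeat protein, were not called higher against the pooled naive libraries at any time. KDM3A held 56.3 to 78.0 CPM in the 6 naive libraries and 126 and 135 CPM in mTeSR at day 8. At day 8 it differed from naive by 0.96 ± 0.16 in mTeSR (adjusted p = 7.14e-06), just short of a call, and by 0.29 in N2B27 and 0.22 in E8 (adjusted p 0.151 and 0.279, edgeR). EGLN3 fell at day 2, by 0.96 ± 0.21 in N2B27 (adjusted p = 0.000568) and by 0.60 ± 0.22 in E8 (adjusted p = 0.0234, edgeR), and at day 8 stood 0.50 to 0.51 above naive in the 3 media. The EGLN3 fall in E8 did not pass without either E8 day 2 library (adjusted p 0.166 and 0.121, edgeR). Within Ex1, where naive Geltrex held 25.5 and 24.6 CPM and N2B27 day 2 held 10.2 and 13.9 CPM, the EGLN3 fall was called (1.06 ± 0.16, adjusted p = 4.88e-06, edgeR), beside 15.8% of all genes. Within Ex2, where naive Geltrex held 14.3 and 14.6 CPM, EGLN3 was called higher in FAX (1.11 ± 0.17, adjusted p = 2.08e-06; 21% of all genes called) and stood 0.99 ± 0.17 higher in N2B27 at day 4 (adjusted p = 1.36e-05, edgeR), short of a call. ANKRD37 reached its lowest level in E8 at day 2, 5.29 and 6.86 CPM against 7.83 to 19.4 CPM in the naive libraries, a fall of 1.35 ± 0.33 (adjusted p = 0.00113, edgeR; 24.6% of all genes called). At day 8 ANKRD37 was 0.48 and 0.40 below naive in N2B27 and mTeSR, neither past the test, and 0.66 below in E8 (adjusted p = 0.0445, edgeR), which did not pass without either E8 day 8 library (0.342 and 0.0609, edgeR). The 6 libraries of day 8 (8.58 to 11.9 CPM) all lay below the 4 naive Ex1 libraries (17.4 to 19.4 CPM), while naive Ex2 held 7.83 and 11.3 CPM. Against naive Geltrex of Ex1 the ANKRD37 differences at day 8 were −0.69 in N2B27, −0.87 in E8 and −0.61 in mTeSR (adjusted p 0.0217, 0.00451 and 0.0501, edgeR), none large enough for a call.

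**Figure D2:**
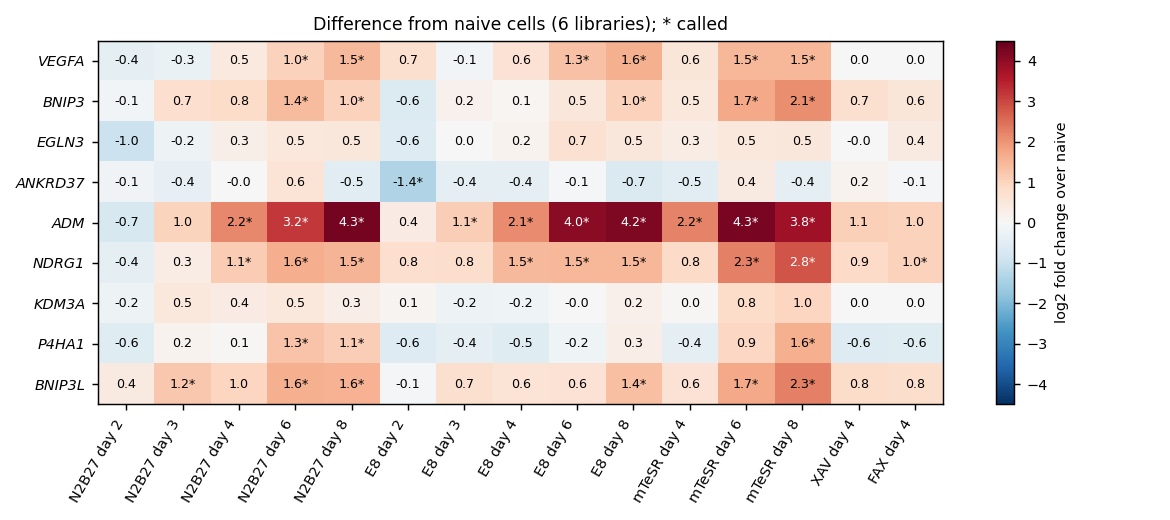
Log2 change of each tested member (rows) from the 6 naive libraries in each medium and day (columns), with red for higher, blue for lower, and a star for a called change. ADM has the deepest red at days 6 and 8, and ANKRD37 in E8 at day 2 is the 1 called fall.

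The gain was not even in time. Between successive sampled days within a medium, members were called in 11 of 90 tests (12.2%), against 2.52% over all genes. Of these, 5 came from the mTeSR step from day 4 to day 6 (2.91% of all genes called), in which ADM rose by 2.05 ± 0.18, NDRG1 by 1.44 ± 0.18, P4HA1 by 1.34 ± 0.10, BNIP3 by 1.24 ± 0.13 and BNIP3L by 1.06 ± 0.13 (adjusted p from 6.93e-11 to 2.28e-06, edgeR). In these 2 days P4HA1 went from 110 and 108 CPM to 265 and 287 CPM. In N2B27 ADM rose at 3 steps, by 1.70 ± 0.33 from day 2 to 3 (3.18% of all genes called), by 1.32 ± 0.19 from day 4 to 6 (3.89%) and by 1.11 ± 0.17 from day 6 to 8 (1.43%), while ANKRD37 fell by 1.10 ± 0.24 from day 6 to 8. In E8 ADM rose by 1.01 ± 0.23 from day 3 to 4 (0.81% called) and by 1.93 ± 0.19 from day 4 to 6 (2.51%), and no other member was called in a step of E8. Some of these calls were lost under an alternative or without a single library. The ADM step from day 2 to 3 in N2B27 was lost in a fit of those 2 groups only (adjusted p = 0.0819, edgeR). The ADM step from day 3 to 4 in E8 was lost without E8 day 3 replicate 1 (0.65, adjusted p = 0.294) and without either day 4 library (adjusted p 0.0901 and 0.0778, edgeR), and in a fit of these 2 groups only (adjusted p = 0.497, edgeR). It also fell short with no filter (0.998) and with the library score as covariate (0.92). The ADM step from day 6 to 8 in N2B27 fell short without day 8 replicate 1 (0.93). The ANKRD37 step was lost without N2B27 day 6 replicate 2 (adjusted p = 0.144) or either day 8 library (0.0561 and 0.075, edgeR), and the BNIP3L step in mTeSR was 0.99 without day 4 replicate 1 or with the library score as covariate. Day 2 and day 3 share libraries that stand apart: a score of the largest axis of spread within groups reached 2.37 to 2.76 in N2B27 day 2 replicate 2, both E8 day 2 libraries and E8 day 3 replicate 1, against a median of −0.34. With that score as a covariate BNIP3 in E8 at day 2 went from −0.62 against naive (adjusted p = 0.0467) to 0.089 (adjusted p = 0.871, edgeR). EGLN3 in N2B27 at day 2 went from −0.96 to −1.19 and became a call (adjusted p = 0.000298, edgeR), and ANKRD37 in E8 at day 2 stayed called (−1.39).

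The media are compared at equal days in Ex1. E8 and N2B27 differed in 6 of 45 member tests (13.3%, against 4.26% of all genes). At day 2 VEGFA was higher in E8 by 1.11 ± 0.16, NDRG1 by 1.16 ± 0.24, and ANKRD37 lower by 1.2 ± 0.31 (adjusted p 2.8e-05, 0.00156 and 0.00849, edgeR; 4.55% of all genes called). The ANKRD37 call was lost without E8 day 2 replicate 1 (−1.02, adjusted p = 0.0925) and in a fit of the 2 groups only (adjusted p = 0.0532, edgeR). VEGFA was 0.99 with plain library totals in place of TMM. BNIP3 and BNIP3L were lower in E8 already at day 2, by 0.49 and 0.45 (adjusted p 0.0139 and 0.0478, edgeR; 6.64% of all genes lower at an adjusted p under 0.05), without a call. Neither held at that threshold in a fit of the 2 groups only (adjusted p 0.104 and 0.318) or without N2B27 day 2 replicate 1 (0.363 and 0.658, edgeR). With the library score as covariate BNIP3L had an adjusted p of 0.101 (edgeR), while VEGFA, NDRG1 and ANKRD37 stayed called (log2 differences 1.07, 1.2 and −1.16). BNIP3, KDM3A, P4HA1 and BNIP3L were lower in E8 at an adjusted p under 0.05 at days 3, 4 and 6 (lower at that threshold: 3.09%, 4.19% and 8.2% of all genes), by 0.48 to 1.48, and were called for BNIP3 (−1.06 ± 0.13) and P4HA1 (−1.12 ± 0.10) at day 4 (2.49% of all genes) and for P4HA1 (−1.48 ± 0.09, adjusted p = 1.07e-12, edgeR) at day 6 (5.28%). The day 3 differences of these 4 rest on a pooled spread: in a fit of the 2 groups only their adjusted p were 0.56, 0.462, 0.539 and 0.606 (edgeR). Without E8 day 3 replicate 1, BNIP3, KDM3A and BNIP3L did not pass at day 3 (adjusted p 0.127, 0.0583 and 0.167, edgeR). BNIP3 was also lost without N2B27 day 3 replicate 2 (0.0634), and KDM3A and BNIP3L without replicate 1 (0.0561 and 0.171, edgeR). KDM3A at day 6 was lost without N2B27 day 6 replicate 1 (−0.24, adjusted p = 0.444) and without either E8 day 6 library (0.131 and 0.147, edgeR). At day 6 P4HA1 held 126 and 127 CPM in E8 and 363 and 342 CPM in N2B27, and BNIP3 held 328 and 286 against 583 and 578 CPM, in both cases without overlap. At day 6 ADM was higher in E8 by 0.85 (adjusted p = 0.000734) and ANKRD37 lower by 0.70 (adjusted p = 0.0391, edgeR), neither called. ANKRD37 did not pass without N2B27 day 6 replicate 2 (0.305) or either E8 day 6 library (0.188 and 0.137, edgeR). VEGFA and EGLN3 did not pass at days 3 to 8. At day 8 the differences of BNIP3, KDM3A and BNIP3L were −0.01, −0.07 and −0.20 (adjusted p 0.985, 0.797 and 0.275) and P4HA1 was still lower, by 0.82 ± 0.09 (8.3e-08, edgeR). A test of the whole course, which asks whether the E8 minus N2B27 difference changed over the 5 days, passed for 7 of the 9 members (11% of all genes): VEGFA, BNIP3, ADM, NDRG1, KDM3A, P4HA1 and BNIP3L. Without day 2 it passed for 4, with VEGFA, NDRG1 and KDM3A lost (adjusted p 0.873, 0.195 and 0.061), and VEGFA was also lost without E8 day 2 replicate 2 (adjusted p = 0.0717, edgeR). ADM was lost without N2B27 day 6 replicate 1 or 2, N2B27 day 8 replicate 1 or E8 day 6 replicate 2 (adjusted p 0.0527 to 0.0993, edgeR). BNIP3L was lost with no filter and without N2B27 day 4 replicate 2, E8 day 2 replicate 1, E8 day 8 replicate 1 or any library of N2B27 at days 6 and 8 or E8 at day 6 (adjusted p 0.0523 to 0.104, edgeR). BNIP3 at day 4 fell just short of a call without N2B27 day 4 replicate 2 (−0.99) and with the library score as covariate (−0.995).

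Between mTeSR and E8 no member was called at day 4 (0.084% of all genes), and P4HA1 held 110 and 108 against 98.8 and 102 CPM. At day 6 BNIP3, P4HA1 and BNIP3L were higher in mTeSR by 1.21 ± 0.13, 1.13 ± 0.09 and 1.06 ± 0.13 (1.1% of all genes called), and at day 8 P4HA1 was higher by 1.31 ± 0.09, NDRG1 by 1.36 ± 0.17 and BNIP3 by 1.05 ± 0.13 (5.31%). Over the 3 days that is 6 of 27 tests (22.2%, against 2.17%). VEGFA, EGLN3, ANKRD37 and ADM did not pass between mTeSR and E8 at any of the 3 days. Against N2B27, mTeSR had 3 of 27 calls (11.1%, against 2.67%), ADM at day 6 (1.09 ± 0.17; 2.62% of all genes) and BNIP3 (1.05 ± 0.12) and NDRG1 (1.29 ± 0.17) at day 8 (3.8%). At day 4 P4HA1 was lower in mTeSR than in N2B27 by 0.99 ± 0.10 and at day 8 higher by 0.50 ± 0.09 (adjusted p 5.96e-08 and 0.000334, edgeR), so the order of the 2 media turned. With the counts of its pseudogene rows added, an alternative chosen after seeing the data, the BNIP3 differences at day 8 came to 0.98 against E8 and 0.97 against N2B27, short of a call. The difference from N2B27 also fell short with plain library totals (0.987) and without N2B27 day 8 replicate 2 (0.998). ADM at day 6 was 0.98 against N2B27 with the library score as covariate.

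**Figure D3:**
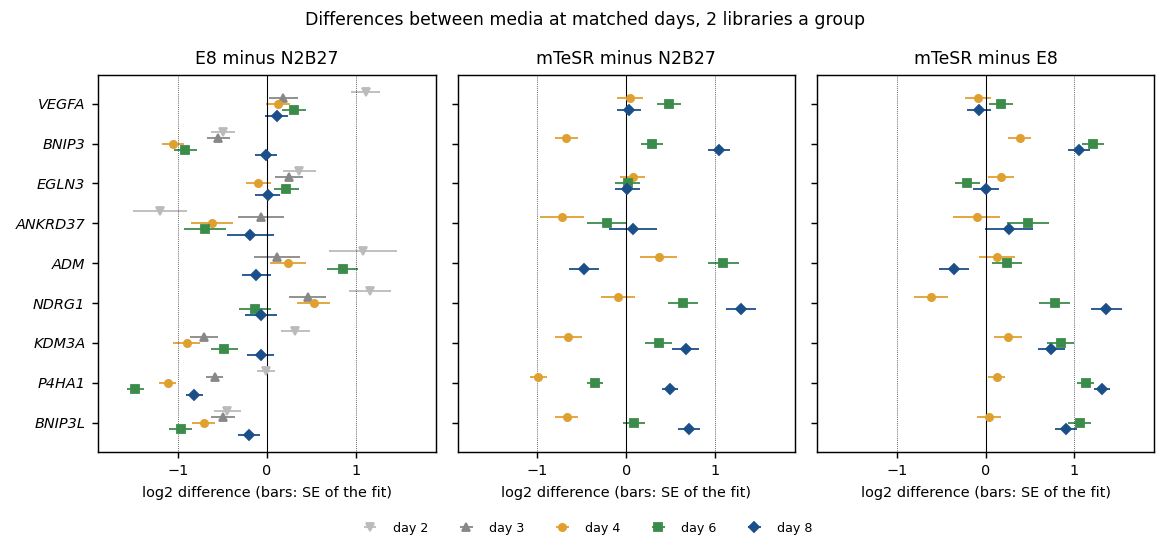
Log2 difference of each tested member between media at equal days, with symbols for days, bars for the standard error of the fit, and dotted lines at the size needed for a call. BNIP3, KDM3A, P4HA1 and BNIP3L lie left of 0 at days 4 and 6 in the panel of E8 minus N2B27 and right of 0 at days 6 and 8 in the panel of mTeSR minus E8.

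Markers of other cell types differed between the same groups, and from naive cells. In the 6 naive libraries 7 endoderm and mesoderm markers (SOX17, GATA4, GATA6, FOXA2, TBXT, MIXL1 and EOMES) summed to 3.06 to 22.1 CPM, 9 trophectoderm and amnion markers to 9.93 to 18.7 CPM and 6 fibroblast markers to 1.96 to 4.43 CPM. The day 8 sums below stand beside the member rises from naive: all were higher than in naive but the trophectoderm and amnion sum of mTeSR, which overlapped it. The endoderm and mesoderm sum was 64.9 and 65.0 CPM in N2B27 at day 4 against 11.4 and 13.8 CPM in E8 and 17.6 and 22.7 CPM in mTeSR, and 226 and 247 CPM at day 6 against 51.5 and 57.5 CPM in E8 and 131 and 146 CPM in mTeSR. At day 8 it was 353 and 436 CPM in N2B27, 50.7 and 52.4 CPM in E8 and 222 and 269 CPM in mTeSR, a day at which P4HA1 was lower in E8 than in N2B27 and BNIP3, KDM3A and BNIP3L did not pass. SOX17 stood at 0.348, 0.0983 and 0 CPM in N2B27, E8 and mTeSR at day 4, in group means, with at most 3 counts in any of these 6 libraries. The trophectoderm and amnion sum was 36.1 and 38.5 CPM in N2B27 and 37.1 and 39.7 CPM in E8 at day 4, led by GATA3 (24.1 and 21.9 CPM in means) and with VTCN1 at 0. At day 6 it was 35.7 and 35.9 CPM in N2B27, 49.6 and 53.5 CPM in E8 and 30.9 and 31.6 CPM in mTeSR. At day 8 it was 67.3 and 83.2 CPM in N2B27, 29.1 and 33.1 CPM in E8 and 18.1 and 21.6 CPM in mTeSR. The fibroblast sum was 92.0 and 97.9 CPM in N2B27 and 69.9 and 80.2 CPM in E8 at day 4, while COL1A1 among them was at 13.2 and 31.8 CPM. At day 6 the fibroblast sum was 165 and 171 CPM in N2B27, 130 and 132 CPM in E8 and 135 and 136 CPM in mTeSR. At day 8 the fibroblast sum was 161 and 172 CPM in N2B27, 101 and 102 CPM in E8 and 133 and 150 CPM in mTeSR. For days 2 and 3 the sums are given for N2B27 against E8. The fibroblast sum was 41.8 and 47.3 against 19.7 and 28.8 CPM, then 74.8 and 86.0 against 40.6 and 40.7 CPM. The endoderm and mesoderm sum was 11.6 and 13.2 against 10.1 and 12.7 CPM, then 19.1 and 27.3 against 8.44 and 9.07 CPM. The trophectoderm and amnion sum was 19.2 and 23.5 against 16.6 and 18.6 CPM, then 38.9 and 52.0 against 26.7 and 33.7 CPM. Whether cells of these types were present, and what part they had in the member values, was not tested.

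Both experiments had naive cells on Geltrex and N2B27 at day 4, and the change from one to the other differed between experiments for 7 of the 9 tested members (edgeR, adjusted p under 0.05; 11.7% of all genes). In the naive state ADM was higher in Ex2 than in Ex1 by 2.57 ± 0.35 (14.0 and 11.3 against 2.01 and 2.16 CPM; adjusted p = 5.24e-06, edgeR), the 1 call there among 9 members (4.67% of all genes). Beside it VEGFA, BNIP3 and P4HA1 were higher in Ex2 by 0.66, 0.73 and 0.61 and EGLN3 and ANKRD37 lower by 0.79 and 0.89, all with an adjusted p under 0.05 (edgeR; 15.2% of all genes in either direction) and too small for a call. VEGFA did not pass without naive Geltrex Ex1 replicate 2 or Ex2 replicate 2, nor ANKRD37 without either Ex1 library or Ex2 replicate 1 (adjusted p 0.0534 to 0.213, edgeR). Within Ex1, coating (Geltrex or serum) gave no call among members (0.048% of all genes); BNIP3 was the nearest, 0.55 higher on Geltrex with an adjusted p of 0.0597 (edgeR). At day 4 in N2B27 P4HA1 was lower in Ex2 than in Ex1 by 1.36 ± 0.10 (82.1 and 87.0 against 217 and 218 CPM; adjusted p = 7.6e-11, edgeR; 1.01% of all genes called), and BNIP3, KDM3A and BNIP3L were lower by 0.77, 0.76 and 0.81 at an adjusted p under 0.05 (2.09% of all genes lower at that threshold) without a call. KDM3A did not pass without N2B27 day 4 Ex2 replicate 1 (adjusted p = 0.0841, edgeR).

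The change from naive to day 4 therefore ran in opposite directions for P4HA1. Within Ex1 it rose by 0.71 ± 0.09 (adjusted p = 2.56e-07) and within Ex2 it fell by 1.26 ± 0.10 (adjusted p = 4.01e-12, edgeR), a call in a comparison with 21.8% of all genes called. P4HA1 was also called lower than the naive cells of Ex2 in XAV (−1.04 ± 0.10; 19.6% of all genes called) and in FAX (−1.04 ± 0.10). BNIP3 rose in Ex1 by 1.30 ± 0.13 (adjusted p = 7.06e-10, edgeR; 16.6% of all genes called) and held 252 and 308 CPM against 330 and 317 CPM in Ex2 (adjusted p = 0.202, edgeR). BNIP3L rose by 1.30 ± 0.13 in Ex1 and held 46.8 and 48.6 against 40.8 and 41.9 CPM in Ex2 (adjusted p = 0.28, edgeR). ADM rose in both, by 3.12 ± 0.30 in Ex1 and by 1.09 ± 0.23 in Ex2. NDRG1 was 0.93 and 1.12 above naive in Ex1 and Ex2, the second a call. The difference between the experiments in this change passed the test for VEGFA, BNIP3, EGLN3, ADM, KDM3A, P4HA1 and BNIP3L. It was lost for VEGFA without naive Geltrex Ex1 replicate 2, N2B27 day 4 Ex1 replicate 1 or naive Geltrex Ex2 replicate 2 (adjusted p 0.0504 to 0.0857, edgeR) and for EGLN3 without N2B27 day 4 Ex1 replicate 2 or Ex2 replicate 1 (0.0508 and 0.0528, edgeR). Both were also lost with no filter (adjusted p 0.0551 and 0.0894, edgeR). KDM3A was lost without replicate 1 of either naive Geltrex group, either N2B27 day 4 library of Ex1 or replicate 1 of Ex2 (adjusted p 0.0563 to 0.212, edgeR). The naive Ex2 libraries had 3038046 and 3642536 counts, the first of these the lowest total of the series, and the naive markers summed to 1511 and 1642 CPM there against 1902 to 2067 CPM in naive Ex1. The endoderm and mesoderm markers summed to 3.06 and 4.96 CPM in naive Geltrex Ex2 against 21.9 and 22.1 CPM in Ex1. In N2B27 at day 4 they summed to 33.5 and 43.6 CPM in Ex2 against 64.9 and 65.0 CPM in Ex1. The trophectoderm and amnion sum at day 4 was higher in Ex2, 43.9 and 52.9 against 36.1 and 38.5 CPM. Experiment and the state of these cultures cannot be told apart.

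**Figure D4:**
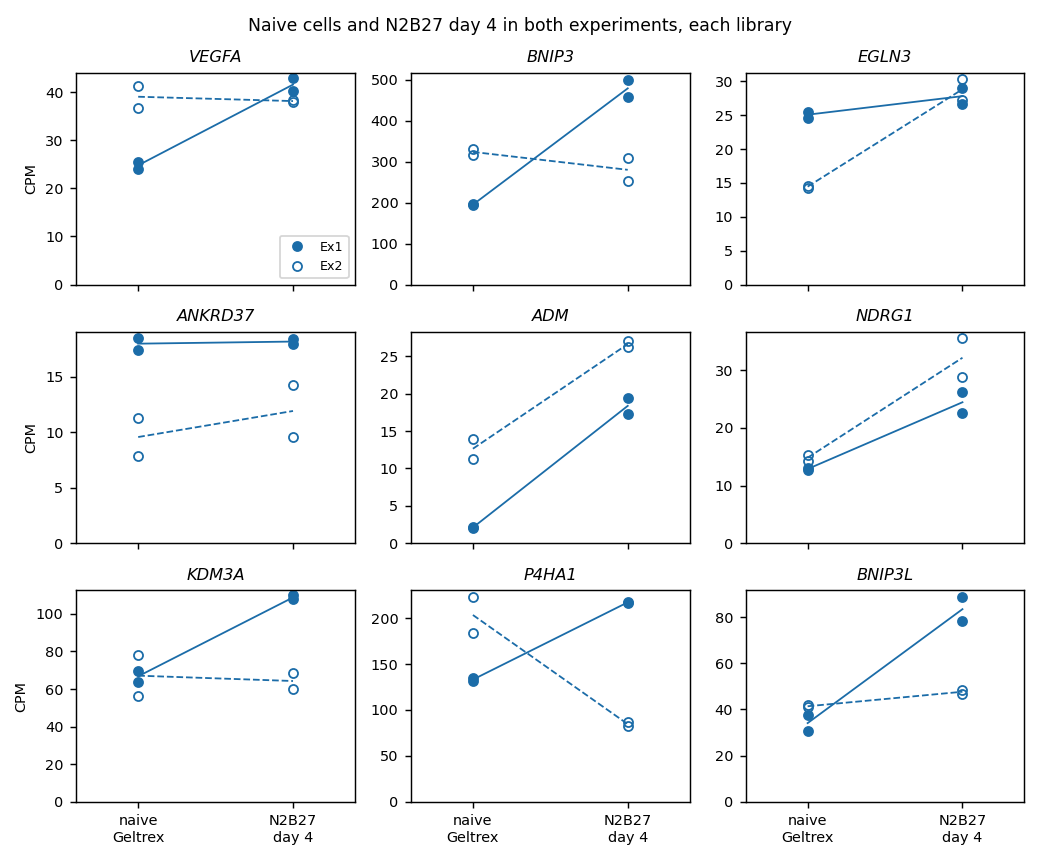
CPM (axis from 0) of the 9 tested members in each naive Geltrex library and each N2B27 day 4 library, filled for Ex1 and open for Ex2, with lines joining the means. For P4HA1 the 2 lines cross, from 133 to 217 CPM in Ex1 and from 203 to 84.5 CPM in Ex2.

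Within Ex2 the day 4 cultures with the tankyrase inhibitor, alone or with FGF2 and Activin A, were compared with N2B27, and ADM was the 1 member called. It held 11.03 and 9.93 CPM in XAV and 8.13 and 12.5 CPM in FAX against 26.2 and 27.03 CPM in N2B27, below it in every library, with differences of −1.34 ± 0.22 and −1.36 ± 0.23 (adjusted p 0.000378 and 0.00113, edgeR; 0.57% and 0.336% of all genes called). Without FAX replicate 1 the ADM difference of FAX was −1.09 with an adjusted p of 0.0842 (edgeR). No other member passed the test against N2B27. VEGFA held 28.7 and 29.8 CPM in XAV and 30.2 and 28.5 CPM in FAX against 37.9 and 38.4 CPM in N2B27. In group means VEGFA and NDRG1 were lower and P4HA1 and BNIP3L higher in XAV and FAX than in N2B27, with adjusted p of 0.336 to 0.753 (edgeR). No member was called between XAV and FAX (0.012% of all genes called). The fibroblast markers described above summed to 83.9 and 84.4 CPM in N2B27 here, 56.6 and 64.7 CPM in XAV and 61.3 and 68.1 CPM in FAX, and their part in the ADM values was not tested. Over the 3 comparisons members had 2 of 27 calls (7.41%, against 0.306%).

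The pathway around the members was read from lists chosen with earlier results of these data known. Of 16 regulators of the HIF pathway, 5, 6 and 5 were called higher at day 8 in N2B27, E8 and mTeSR (16.9%, 18.2% and 16.9% of all genes called higher) and none lower. HIF1A stood at 136 CPM in naive and at 254, 289 and 221 CPM at day 8 in N2B27, E8 and mTeSR, called in E8 alone of the 3. EGLN1, the main oxygen sensor, rose from 8.37 CPM to 17.1, 21.5 and 40.9 CPM, called in each. VHL stood at 71.4 CPM in naive and 53.3, 51.7 and 61.3 CPM at day 8, with no call. EPAS1 was at or under the detection limit of 3 counts in the naive libraries and reached 3.41 to 7.09 CPM, so no fold is given. CITED2, which restrains HIF, went from 4.42 CPM to 37.9 CPM in N2B27, and ARNT2, a partner of HIF, from 0.762 CPM to 11.3 CPM in E8. The naive mean of ARNT2 lay within the range of the detection limit.

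Of 29 other hypoxia-inducible genes, 27 were tested, and 11, 9 and 20 were called higher at day 8 in N2B27, E8 and mTeSR, beside the same shares of all genes. Between E8 and N2B27 at day 6, 10 of the 27 were called lower in E8 (2.97% of all genes) and 1 higher, with a median of −0.57 beside 0.00 over all genes. Between mTeSR and E8, 11 were called higher at day 6 (0.63% of all genes) and 13 at day 8 (2.51%), with 1 lower (medians 0.75 and 1.01). Of 18 glycolytic HIF targets, 4 and 3 were called lower in E8 than in N2B27 at days 4 and 6 (1.13% and 2.97% of all genes), and 6 and 7 higher in mTeSR than in E8 at days 6 and 8. The other glycolytic genes were not called in these comparisons. SLC2A3 and SLC2A1, glucose carriers, went from 236 and 49.2 CPM in naive to 1691 and 419.8 CPM in mTeSR at day 8, and HK1, a hexokinase, from 22.5 to 391 CPM. PFKL, of phosphofructokinase, was called lower at day 8 in E8 than in naive (53.1 CPM against 127 CPM), as were BHLHE40, a clock repressor (4.26 against 9.40 CPM), and JMJD6, a demethylase (5.31 against 14.6 CPM). CXCR4, a chemokine receptor, rose from 0.875 CPM in naive, within the range of the detection limit, to 88.4 CPM in N2B27 at day 8. BHLHE41, a paralog of BHLHE40, was at 0 in all naive libraries and at 2.69, 1.52 and 7.03 CPM at day 8 in N2B27, E8 and mTeSR, called in each.

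**Figure D5:**
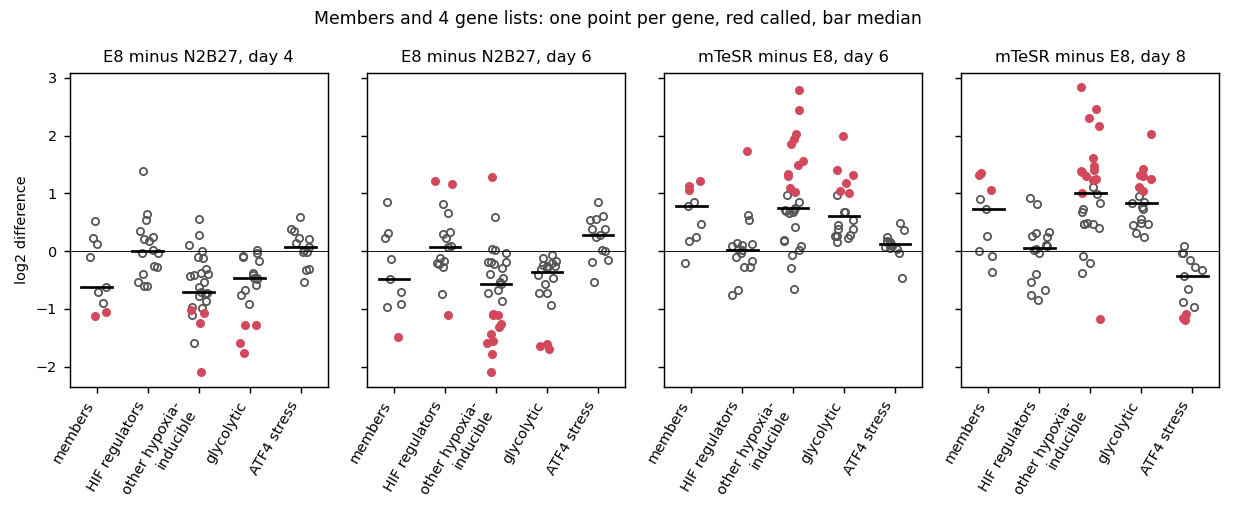
Log2 differences between media for the 9 tested members and 4 gene lists, with 1 point per gene, red for called and a bar at the median. The bars of the members, of the other hypoxia-inducible genes and of the glycolytic genes lie below 0 for E8 minus N2B27 and above 0 for mTeSR minus E8, and the bar of the 13 ATF4 stress genes lies above 0 in all panels but mTeSR minus E8 at day 8.

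The members did not all share 1 course. Over 19 group means the 36 pairs of tested members correlated at a median Pearson's r of 0.62 (from −0.10 to 0.95). For P4HA1 the 2 most like genes were BBX and P4HA2, which encodes another catalytic subunit of prolyl 4-hydroxylase (r 0.97 and 0.96), for VEGFA ABLIM1 and EPS8L2 (0.95 and 0.94), for ADM AC024940.5 and PIK3CD (0.96 and 0.96), and for BNIP3L NRN1 and TMEM45A (0.96 and 0.96). The closest genes of ANKRD37 were IQSEC1 and ZFP62 at 0.80 and 0.79, the weakest likeness of the 9. With the 19 groups ordered by level, 10 of the 18 pairs of neighbours did not overlap for P4HA1 and 1 of 18 for ANKRD37 and for KDM3A, beside a median of 2 over all 16674 genes tested.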

How the data were processed

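The counts per gene are whole numbers, deposited by the authors as 1 table of 38 libraries, after nf-core/rnaseq with STAR 2.7.10a, Salmon 1.9.0 and tximport on hg38 per the labels and the study's methods, so reads shared by near copies may be split. Libraries were grouped by their labels, 2 in each of 19 groups. From the counts, genes were kept by filterByExpr (16674 of 57133, 99.6% of counts), scaled by TMM and fitted with edgeR 4.0.16 (quasi-likelihood) in R 4.3.3. Comparisons with naive cells used 16 levels with the 6 naive libraries pooled, and all others used the 19 groups, with a dispersion estimated over all groups (BCV 10.0%). Adjustment was Benjamini-Hochberg over all genes within a comparison. The floor was 3 counts per library and covers counting error only. Library totals ran from 3038046 to 5612354. The tests were tried on simulated data. Named genes were the members, 4 regulators, up to 2 rises and 2 falls per list and medium at day 8, the 2 genes most like each member, and a few markers. The members, the lists and the tests were chosen with earlier results of these data known. Alternatives were RLE scaling and plain totals, no filter or a filter of more than 10 counts in 2 libraries, DESeq2 1.42.0, a replicate block, experiment or library score as covariate, fits to the compared libraries alone, and leaving out each library. Promoters came from RefSeq (GRCh38.p14). Whether counting used strand is not given in the sources used here.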

Additional observations from a re-analysis of the deposited data

Results flagged for a closer look

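For 7 members the difference between E8 and N2B27 changed over the 5 sampled days by a test of that change itself (edgeR), beside 11% of all genes. Without day 2 it passed for 4, with VEGFA, NDRG1 and KDM3A lost. ADM and BNIP3L did not hold in every alternative. The adjusted p was 1.4e-07 for P4HA1, 0.000794 for BNIP3, 0.00143 for KDM3A, 0.00635 for VEGFA, 0.0146 for NDRG1, 0.0267 for ADM and 0.0349 for BNIP3L (edgeR).

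For 7 members the change from naive Geltrex cells to N2B27 at day 4 differed between the experiments by the same kind of test, beside 11.7% of all genes. The result did not hold in every alternative for VEGFA, EGLN3 and KDM3A. Ex2 minus Ex1 on the log2 scale was −2.03 for ADM, −1.97 for P4HA1, −1.5 for BNIP3, −1.1 for BNIP3L, −0.79 for VEGFA, −0.75 for KDM3A and 0.84 for EGLN3.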

How the results depend on the processing

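Over 194 member values and 2999 alternatives, 2883 kept direction and their side of the threshold for a call, 79 lost the call, 33 gained one and 4 turned sign, and the cause was not tested. A value that passed at an adjusted p under 0.05 without a call counted as kept even where it no longer passed. BNIP3 in E8 at day 2 against naive cells moved from −0.62 to 0.089 with the library score as covariate. The day 8 differences of BNIP3 and KDM3A between E8 and N2B27, which did not pass, ran over single libraries left out from −0.054 to 0.044 and from −0.17 to 0.018, above 0 without N2B27 replicate 1 (BNIP3) and without E8 replicate 2 (both). Leaving out single libraries gave 1 to 2 member calls among XAV, FAX and N2B27 in Ex2 (1 without FAX replicate 1) and 1 to 2 among the naive groups (2 without naive Geltrex Ex2 replicate 2). The course test without day 2, chosen after seeing the data like the pseudogene sum and the within-Ex2 reference, passed for 4. With plain library totals in place of TMM the median over all genes was −0.148 in place of −0.003 for E8 day 2 against naive, −0.147 in place of −0.027 against N2B27, and 0.167 in place of 0.051 for E8 day 3 against day 2.

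The replicate numbers do not mark a shared culture in the labels, and same-numbered libraries deviated together at r over 0.1 in 28 of 171 pairs of groups (median 0.00077). With the replicate block ADM in E8 at day 3 was 1.09 above naive cells with an adjusted p of 0.0509 (edgeR), and no other member call changed. That ADM call was also lost with DESeq2 (0.97, adjusted p = 0.141) and without any 1 of the naive Ex1 libraries or E8 day 3 replicate 2 (0.52 to 0.98). NDRG1 in FAX lost its call against the naive cells of Ex2 (0.82) and in 5 of 18 alternatives in all (down to 0.79). VEGFA in N2B27 at day 6 (1.03 above naive) also lost its call in 5 of 18 (down to 0.81). Without a library, its group's lone library was assumed to vary like the others. CA9 was too low to test at this depth.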

Other observations

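Of 13 ATF4 stress genes, targets of the amino acid and unfolded protein responses, 6 were called higher in E8 at day 8 than in naive cells and 1 each in N2B27 and mTeSR, with 1 lower in mTeSR (edgeR), beside 18.2%, 16.9% and 16.9% of all genes called higher. Between E8 and N2B27 none was called at days 4 and 6, where 1 and 4 had an adjusted p under 0.05 with a higher level in E8 (edgeR; 3.74% and 7.67% of all genes), and their medians were 0.08 and 0.27. Between mTeSR and E8 at day 8, 3 were called lower in mTeSR (2.79% of all genes), with a median of −0.42 (edgeR).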
